A study of Saccharomyces cerevisiae with 28 samples.

Results

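The seripauperins (PAU1 to PAU24), DAN1, DAN4 and TIR1 to TIR4 of Saccharomyces cerevisiae are small wall and secreted proteins whose genes are mostly silent in aerated cultures. These 30 genes, listed by systematic name with earlier results of these data known, were followed among the 7125 genes of an RNA-seq table of 28 libraries from 8 strains. One mutant, acs2-ts, carries a temperature-sensitive allele of the acetyl-CoA synthetase gene ACS2 and was compared with its own wild type. The others were the sam1, ser33 and shm2 strains, mutant in genes of S-adenosylmethionine, serine and one-carbon synthesis and compared with BY4741, and pyk1, mutant in the pyruvate kinase gene PYK1 (CDC19) and compared with its own wild type. Each strain had 2 cultures grown in YPD, a rich glucose medium, to an OD600 between 0.7 and 1.0. The growth temperature, the pyk1 allele and the backgrounds of the wild types of acs2-ts and pyk1 were not given in the labels. Values of cultures are given in order of replicate number, as RPKM, read counts divided by gene length and library depth, averaged over the technical replicate libraries of a culture, where there were 2.

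The steps of the RPKM values implied depths of 4330000 to 36520000 reads (median 14820000). SAM1, SER33 and SHM2 were between 0.152 and 0.352 RPKM in the cultures of their own mutants, against 28.9 to 316.6 RPKM in BY4741. ACS2 RNA was 556.7 and 505 RPKM in acs2-ts, against 246.9 and 218.9 RPKM in its wild type. CDC19 RNA was 3896 and 4147 RPKM in pyk1, against 4073 and 3162 RPKM in its wild type, so RNA levels did not mark the acs2-ts and pyk1 alleles as losses. Between the cultures of a strain, the median absolute difference of the 30 genes was 0.17 (sam1) to 0.36 (pyk1) on the log2(RPKM + 1) scale.

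Budding yeast exchanges its wall mannoproteins when oxygen runs out. In aerated cells heme is made, and the repressors Rox1 and Mot3, with the general corepressor Tup1-Cyc8, hold the DAN and TIR genes down. When sterols run low, as they do without oxygen, the zinc-cluster activator Upc2 enters the nucleus and binds sterol response and anaerobic response (AR1) elements upstream of these genes. DAN1, DAN4 and the TIR genes encode mannoproteins that are attached to the wall through a glycosylphosphatidylinositol anchor, TIR1 and TIR2 also being known as cold shock genes. The seripauperins are short, serine-poor relatives of the TIR proteins, many of which lie next to telomeres, where Sir proteins can silence transcription.

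Of the 24 PAU genes, 19 lay within 20 kb of a chromosome end, and PAU2, PAU5, PAU7, PAU17 and PAU23 lay farther in. DAN1 (YJR150C, chrX:708811-709707, minus strand) and DAN4 (YJR151C, chrX:712255-715740, minus strand) were neighbours with 2547 bases and no annotated gene between them. TIR4 (YOR009W, chrXV:344335-345798, plus strand) and TIR2 (YOR010C, chrXV:346195-346950, minus strand) were convergent, with 396 bases between them, and TIR1 (YER011W, chrV:175248-176012) and TIR3 (YIL011W, chrIX:333727-334536) stood alone on the plus strand. All coordinates are of the R64 genome of RefSeq, the assembly called sacCer3 in the submitters' processing notes.

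PAU copies may share reads, because many of their coding sequences are nearly the same. The median identity of the 276 PAU pairs was 87.6%, and 93 pairs were at least 95% identical. PAU1 and PAU14 were identical, as were PAU6 and PAU18 (363 bases each) and PAU21 and PAU22 (495 bases each), and PAU9 (129 bases) was contained in other copies. None of the 50-base words of these 7 genes was unique in the genome, so their values cannot be assigned to a copy. At least 50% of such words were unique in 12 members, which were PAU2, PAU3, PAU5, PAU7, PAU17, PAU23, both DAN genes and the 4 TIR genes. Over 363 bases, PAU5 and PAU23 did not match PAU1 at 49 and 51 bases. The first 48 coding bases hold few letters that separate the copies, with capitals at the bases that differ from PAU1. They are shown for PAU1 (chrX:9091-9138, minus strand), its identical copy PAU14 (chrIX:9108-9155, minus strand), the telomeric PAU6 (chrXIV:781918-781965, plus strand), PAU10 (chrIV:1523249-1523296, plus strand) and PAU19 (chrXIII:922641-922688, plus strand), and the internal PAU5 (chrVI:99552-99599, minus strand) and PAU23 (chrXII:223012-223059, minus strand).
PAU1: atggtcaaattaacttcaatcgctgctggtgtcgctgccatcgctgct
PAU14: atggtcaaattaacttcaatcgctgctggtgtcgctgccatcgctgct
PAU6: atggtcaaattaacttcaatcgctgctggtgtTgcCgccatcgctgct
PAU10: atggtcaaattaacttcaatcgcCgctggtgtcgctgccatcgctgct
PAU19: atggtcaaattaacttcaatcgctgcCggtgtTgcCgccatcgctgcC
PAU5: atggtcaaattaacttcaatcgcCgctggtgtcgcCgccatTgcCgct
PAU23: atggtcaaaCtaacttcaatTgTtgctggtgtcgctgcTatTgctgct

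Upstream, every one of the 30 genes held at least 1 of 2 elements in the 500 bases before its annotated coding start, read on both strands. TCGTATA, the core of the sterol response element, was in 12 of 30 windows (40%), against 7% of the windows of 6000 protein-coding genes and 11.1% of 225 other genes within 20 kb of an end. TCGTTTA, called the AR1 form here whatever base follows it, was in 23 of 30 windows (76.7%), against 8.8% of all windows and 9.78% of the other telomere-proximal genes. Either form was in 14.8% of all windows, 20.9% of the telomere-proximal ones and 6 of the 11 hypoxic genes named below. In 12 PAU genes the AR1 form began 134 or 135 bases before the start. The windows of duplicated genes are copies of each other, so these counts are not independent, and a match of letters is not evidence that a site is used.

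Fewer windows held forms of the repressors' sites. The Rox1 form ATTGTTC was in 5 of 30 windows (16.7%), against 11.8% of all windows, and a second form, CTATTGT, in 8 (26.7%), against 12.9%. The Mot3 form AGGCACA was in 8 windows (26.7%), all of PAU genes, against 4.02% of all windows. TCGTTTAG, the stricter form of AR1 with a G after TCGTTTA, was in only 7 windows (23.3%), against 1.78%. Those 7 were PAU10, PAU19, PAU20, PAU21, PAU22, DAN1 and TIR4.

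The stretches that carry these elements are shown for 5 genes on which the comparisons below turn, with TCGTATA and TCGTTTA in capitals on either strand. The DAN1 stretch (chrX:709898-710127, minus strand, bases -420 to -191) holds 2 AR1 forms and, on the other strand, the sterol response core. The TIR1 stretch (chrV:174868-174927, plus strand, bases -380 to -321) and the TIR4 stretch (chrXV:344085-344144, plus strand, bases -250 to -191) hold 1 AR1 form each. The PAU19 stretch (chrXIII:922401-922520, plus strand, bases -240 to -121) and the PAU22 stretch (chrXVI:8428-8549, minus strand, bases -122 to -1) are alike and hold 2 AR1 forms at nearly the same spacing. PAU22 is annotated with a longer coding sequence than PAU19, which places its start farther upstream.
DAN1: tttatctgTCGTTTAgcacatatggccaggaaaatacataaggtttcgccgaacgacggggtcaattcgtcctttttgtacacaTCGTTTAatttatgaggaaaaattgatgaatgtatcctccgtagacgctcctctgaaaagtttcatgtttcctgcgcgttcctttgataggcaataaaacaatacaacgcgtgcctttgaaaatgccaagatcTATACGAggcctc
TIR1: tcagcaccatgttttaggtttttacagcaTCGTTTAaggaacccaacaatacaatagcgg
TIR4: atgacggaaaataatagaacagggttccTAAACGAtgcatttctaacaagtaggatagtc
PAU19: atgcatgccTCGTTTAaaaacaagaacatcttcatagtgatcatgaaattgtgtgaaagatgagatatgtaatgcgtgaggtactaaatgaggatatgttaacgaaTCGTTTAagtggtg
PAU22: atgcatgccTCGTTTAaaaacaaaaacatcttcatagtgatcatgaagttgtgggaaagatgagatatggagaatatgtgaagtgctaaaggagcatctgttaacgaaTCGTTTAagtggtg

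**Figure D1:**
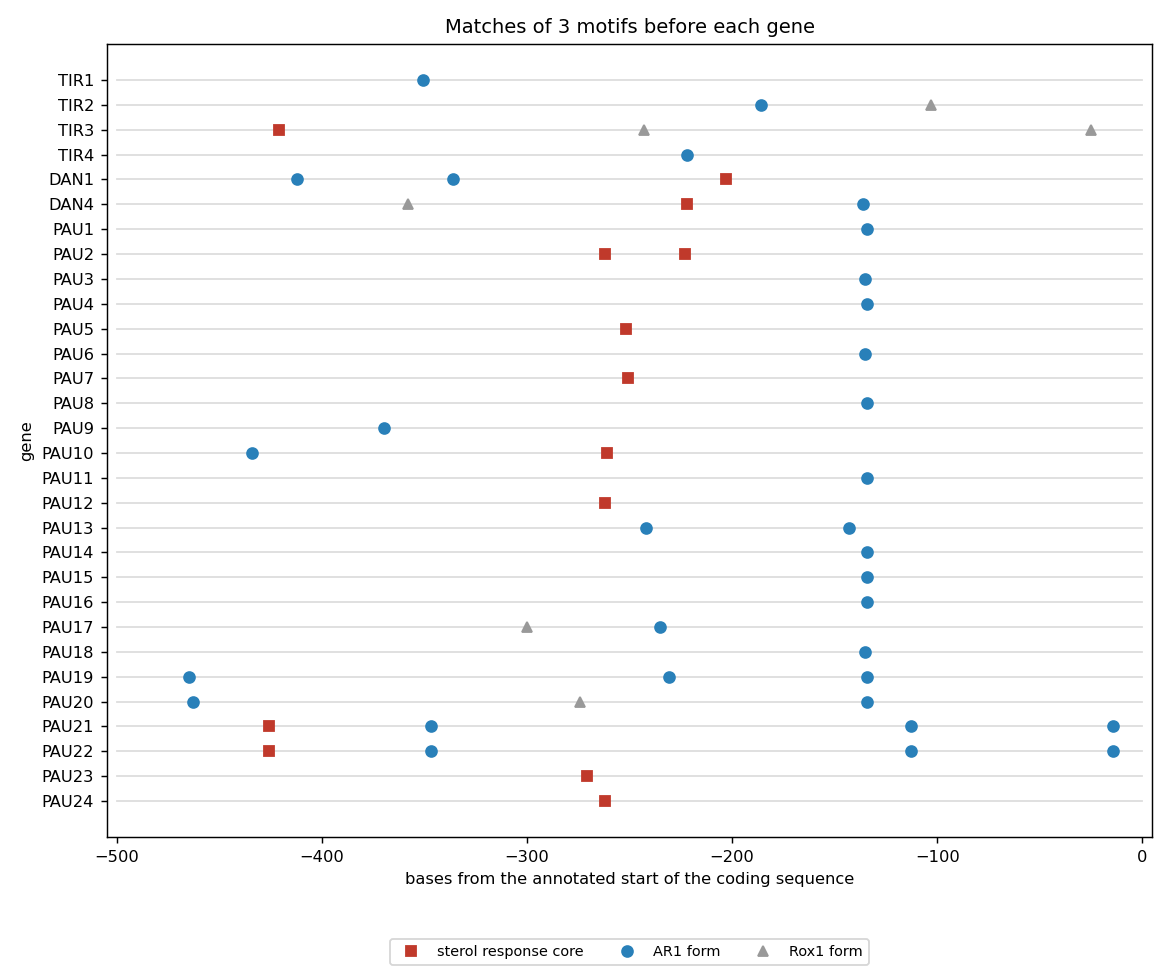
Matches of TCGTATA (sterol response core, squares), TCGTTTA (AR1 form, circles) and ATTGTTC (Rox1 form, triangles) on either strand, by distance in bases from the annotated coding start (horizontal axis), for each of the 30 genes (rows). All 30 rows carry a square or a circle, and 12 PAU genes carry a circle at 134 or 135 bases before the start.

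Most of the 30 genes were weakly expressed. The median of the strain means was 2.21 RPKM for the PAU genes, 9.75 RPKM for the DAN genes and 15.5 RPKM for the TIR genes, against 27.9 RPKM for all 7125 genes. TIR1 was the most abundant, with a mean over strains of 86.6 RPKM, followed by TIR3 (21.0 RPKM), PAU23 (18.1 RPKM), DAN1 (13.1 RPKM) and PAU5 (11.5 RPKM). At the other end, 6 PAU genes averaged under 1 RPKM, and PAU16 (0.323 RPKM) had fewer than 3 reads in 20 of 28 libraries. PAU19 had fewer than 3 reads in 14 libraries, PAU20 in 12 and PAU15 in 11, so small changes of these genes were not detectable at this depth. The mean level was highest in acs2-ts for 20 of the 30 genes, which were 15 PAU, both DAN and 3 TIR genes, and lowest in shm2 for 11.

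**Figure D2:**
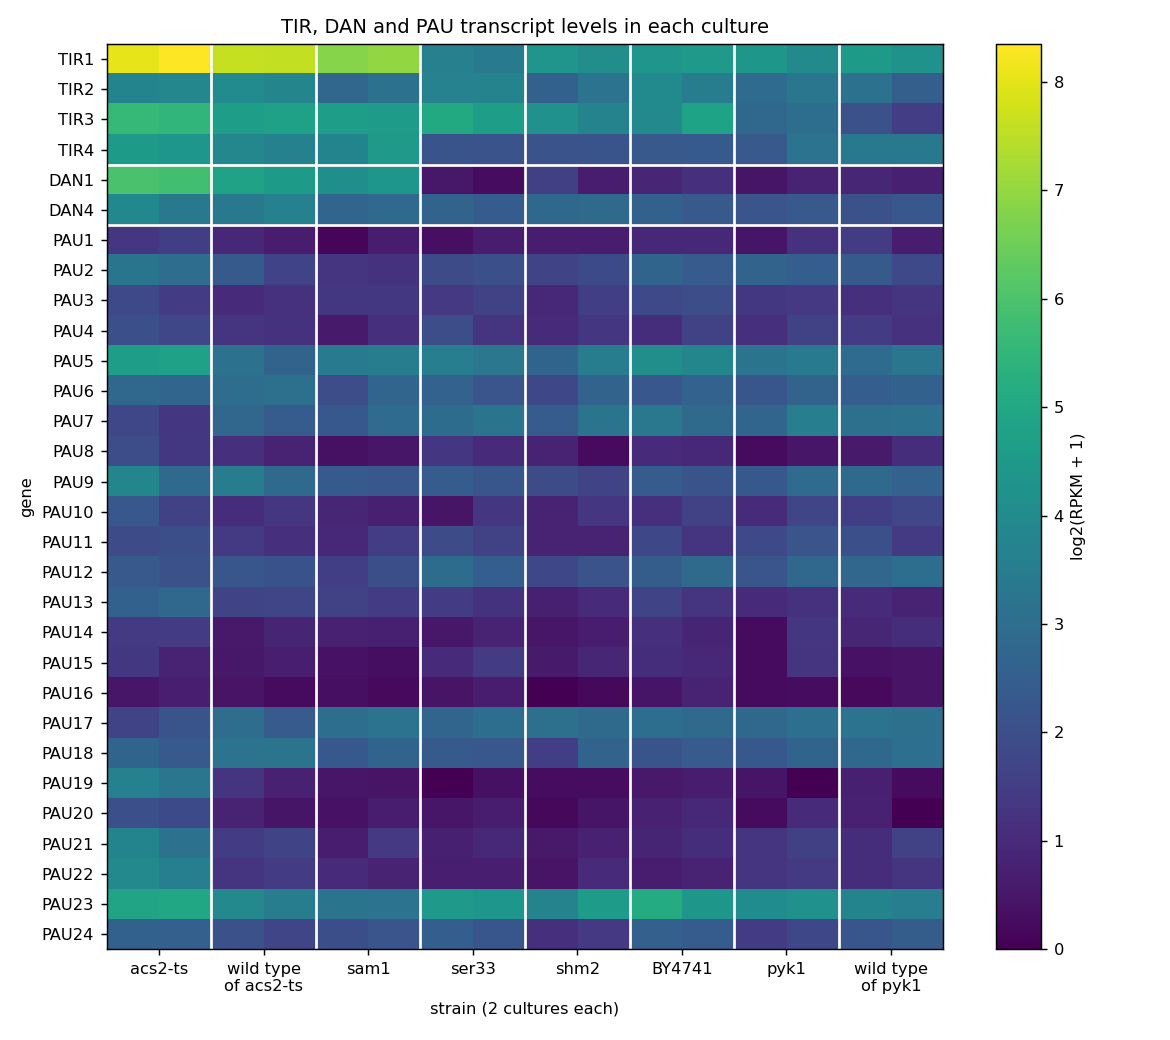
Level of each TIR, DAN and PAU gene (rows) in each of the 16 cultures (columns, 2 per strain, by replicate number), as log2(RPKM + 1) from dark (0) to yellow. TIR1, DAN1 and TIR4 are brightest in acs2-ts, its wild type and sam1, and most PAU rows are darkest in sam1 or shm2 and brightest in acs2-ts.

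Summed over the genes of a class, TIR transcripts reached 373.9 ± 41.3 RPKM in acs2-ts, against 244 ± 4.47 RPKM in its wild type (SD, n = 2 each here and below). The TIR sum was 168 ± 16.3 RPKM in sam1, 54.7 ± 6.98 RPKM in ser33 and 43.0 ± 3.97 RPKM in shm2, against 58.0 ± 7.92 RPKM in BY4741, and 37.6 ± 1.12 RPKM in pyk1, against 38.6 ± 5.70 RPKM in its wild type. The PAU sum was 156 ± 15.0 RPKM in acs2-ts, against 78.9 ± 12.4 RPKM in its wild type. It lay between 62.6 RPKM (sam1) and 84.9 RPKM (ser33) in the 3 metabolic mutants, against 101 ± 12.5 RPKM in BY4741, and was 83.5 ± 19.7 RPKM in pyk1, against 81.4 ± 0.656 RPKM in its wild type. The TIR sums thus spread more widely across strains than the PAU sums. TIR1 alone made up most of the TIR sum in acs2-ts (294 RPKM), its wild type (192 RPKM) and sam1 (121 RPKM), so this spread was largely that of TIR1. In RNA from whole cultures, fewer expressing cells and less RNA per cell cannot be told apart.

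DAN1 and TIR1 divided the strains in the same way. DAN1, named for its delayed induction without oxygen, was at 61.0 and 55.0 RPKM in acs2-ts, 26.8 and 22.3 RPKM in its wild type and 16.9 and 20.04 RPKM in sam1. It was between 0.22 and 1.98 RPKM in the 10 cultures of ser33, shm2, BY4741, pyk1 and the wild type of pyk1. TIR1 was at 262 and 326 RPKM in acs2-ts, 194 and 189.7 RPKM in its wild type and 114 and 127 RPKM in sam1, against 9.60 to 22.3 RPKM in the same 10 cultures. No culture of the first 3 strains overlapped any of the other 5 in either gene. TIR1 and DAN1 had a Pearson correlation of 0.99 over the 8 strain means of log2(RPKM + 1), each being the gene most like the other among 6384 compared, followed for both by YMR317W (0.98 to TIR1). These 2 targets were chosen after their values were seen, the 8 strains shared medium and protocol, and the value rests on the split of 3 strains from 5.

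TIR4 followed the same order less sharply. It was at 22.2 and 19.9 RPKM in acs2-ts, 13.7 and 11.9 RPKM in its wild type and 12.7 and 21.9 RPKM in sam1, with the sam1 cultures reaching across those of both other strains. It was at 3.48 and 3.44 RPKM in ser33, 3.44 and 3.45 RPKM in shm2 and 4.03 and 4.14 RPKM in BY4741, but at 4.07 and 8.17 RPKM in pyk1 and 9.37 and 9.40 RPKM in the wild type of pyk1. TIR1, TIR3 and TIR4 are each needed for growth without oxygen. TIR3 had another order, with 47.8 and 44.1 RPKM in acs2-ts, against 24.2 and 26.3 RPKM in its wild type. It was at 24.2 and 23.0 RPKM in sam1, 32.8 and 24.5 RPKM in ser33 and 17.7 and 12.3 RPKM in shm2, against 14.2 and 27.4 RPKM in BY4741. TIR3 was lowest in the pyk1 pair, at 5.94 and 7.10 RPKM in pyk1, against 3.20 and 1.83 RPKM in its wild type. The BY4741 cultures differed by 0.87 (log2) in TIR3, the widest gap of any of the 30 genes in that strain.

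The internal genes PAU23 (YLR037C) and PAU5 (YFL020C) were the most abundant seripauperins, and their order was different again. PAU23 was at 28.5 and 30.7 RPKM in acs2-ts, against 14.2 and 10.6 RPKM in its wild type, at 8.33 and 8.03 RPKM in sam1, 21.5 and 20.1 RPKM in ser33 and 12.4 and 23.8 RPKM in shm2, against 33.9 and 20.4 RPKM in BY4741. It was at 15.5 and 17.8 RPKM in pyk1, against 12.6 and 10.8 RPKM in its wild type. PAU5 was at 24.2 and 26.8 RPKM in acs2-ts, against 7.80 and 5.35 RPKM in its wild type, at 9.97 and 10.4 RPKM in sam1, 11.0 and 8.98 RPKM in ser33 and 5.44 and 10.8 RPKM in shm2, against 16.4 and 13.3 RPKM in BY4741. In pyk1 it was at 8.17 and 10.2 RPKM, against 6.51 and 8.78 RPKM in its wild type. Both genes were high in acs2-ts and in BY4741, whereas DAN1 and TIR1 were low in BY4741.

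**Figure D3:**
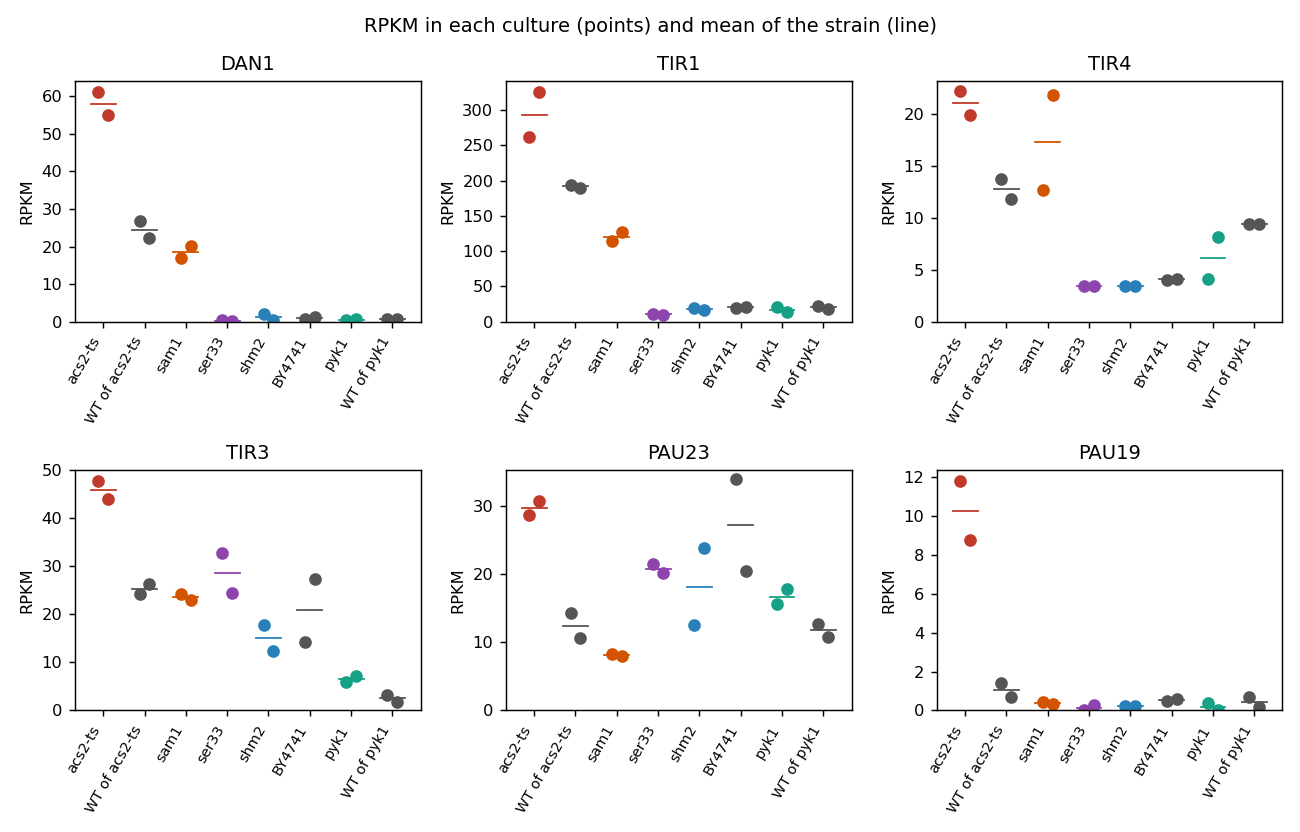
RPKM (vertical axis, linear, a scale of its own in each panel) of 6 genes in the 16 cultures, with a point for each culture and a line at the mean of the 2 cultures of a strain. DAN1 and TIR1 are above every culture of the other 5 strains in acs2-ts, its wild type and sam1, PAU19 is at 11.8 and 8.77 RPKM in acs2-ts and at most 1.39 RPKM in the other cultures, and PAU23 is lowest in sam1.

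In acs2-ts, most seripauperins, DAN1 and most TIR genes had higher RPKM than in its wild type, while most genes of the table had lower RPKM. RPKM is relative to library depth, and the fall of most genes depended on the scaling (below). Of the 30 genes, 20 rose and 3 fell (limma, adjusted p under 0.05), where 5.7% of all genes rose and 78.1% fell. The median log2 fold change on the log2(RPKM + 1) scale was 0.70 for the 30 genes and -1.27 for all genes, and all 30 lay above the median of all genes. A gene at 1 RPKM or less in the wild type cannot reach -1.27 on this scale. Such members were PAU1, PAU8, PAU14, PAU15 (0.54 RPKM), PAU16 (0.27 RPKM) and PAU20. PAU3, PAU4, PAU10 and PAU19, a little above 1 RPKM in the wild type, could not reach it either. The place of all these members above the median was therefore fixed by their level, and only that of the other members is informative. By class, 16 of 24 PAU genes rose and 3 fell, DAN1 rose of the 2 DAN genes, and 3 of 4 TIR genes rose. Among the 12 members with mostly unique sequence, 8 rose and 2 fell.

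The 3 largest changes were in subtelomeric copies, with the internal PAU5 (below) close to the third. Under median-of-ratios scaling PAU5 (3.30) and PAU21 (3.27) were level. PAU19 (YMR325W), whose gene ends 1.42 kb from the right end of chromosome XIII, was at 11.8 and 8.77 RPKM in acs2-ts (121 and 89 reads), against 1.39 and 0.71 RPKM in its wild type (15 and 8 reads), a log2 fold change of 2.46 ± 0.23 (SE, adjusted p = 0.000211). PAU22 (YPL282C) was at 14.3 and 11.2 RPKM in acs2-ts, against 1.43 and 1.76 RPKM in its wild type (2.40 ± 0.18, adjusted p = 0.000132). PAU21 (YOR394W), its identical copy, was at 12.6 and 7.73 RPKM, against 1.79 and 2.24 RPKM (1.86 ± 0.25, adjusted p = 0.000706). These 3 genes and PAU20 hold the TCGTTTAG form counted above, PAU21 and PAU22 being copies whose values cannot be told apart. PAU19 was 98.13% identical to both, and 27.9% of its 50-base words were unique. The 3 changes may therefore rest in part on shared reads. PAU5 and PAU23, which also rose (below), hold no TCGTTTA in their windows. A link between the TCGTTTAG form and the changes was not tested. PAU20 (YOL161C) was at 3.15 and 2.69 RPKM in acs2-ts, against 0.74 and 0.39 RPKM in its wild type (1.31 ± 0.16, adjusted p = 0.00056). PAU10, the other seripauperin with that form, had a log2 fold change of 0.72 ± 0.23 (adjusted p = 0.0275). On this scale the fold of genes near 1 RPKM is understated.

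Genes away from the telomeres rose too. PAU5, given by culture above, rose by 1.83 ± 0.20 (adjusted p = 0.00031), PAU23 by 1.21 ± 0.17 (adjusted p = 0.000958) and DAN1 by 1.22 ± 0.14 (adjusted p = 0.000349). Of the 19 PAU genes within 20 kb of an end 13 rose and 1 fell, and of the 5 farther in 3 rose and 2 fell. The 238 other genes within 20 kb of an end had 7 higher, 170 lower and a median log2 fold change of -0.76, and 185 of them lay above the median of all genes, by 0.51 in the median. For those at 1 RPKM or less in the wild type, or a little above it, that place was again fixed by their level.

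Among the TIR genes, TIR3 rose by 0.87 ± 0.12 (adjusted p = 0.000899), TIR4 by 0.70 ± 0.14 (adjusted p = 0.00414) and TIR1 by 0.62 ± 0.14 (adjusted p = 0.00592). The call for TIR1 rested on both wild-type cultures, with an adjusted p of 0.0556 without replicate 1 and 0.0612 without replicate 2 of the wild type. TIR2, the cold shock gene convergent with TIR4, was at 12.7 and 13.6 RPKM in acs2-ts, against 15.2 and 13.02 RPKM in its wild type (-0.09 ± 0.14, adjusted p = 0.584). DAN4, next to DAN1, was at 14.0 and 9.36 RPKM, against 9.28 and 11.8 RPKM (0.18 ± 0.23, adjusted p = 0.506). Both genes overlapped between the strains, but under median-of-ratios scaling TIR2 (1.36, adjusted p = 0.00312) and DAN4 (1.61, adjusted p = 0.0129) rose.

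The 3 that fell were PAU7, PAU17 and PAU18. PAU7 (YAR020C), a short internal copy, was at 2.44 and 1.52 RPKM in acs2-ts, against 5.74 and 4.39 RPKM in its wild type (-1.05 ± 0.21, adjusted p = 0.0045). PAU17 changed by -0.76 ± 0.25 (adjusted p = 0.0325) and PAU18 by -0.67 ± 0.18 (adjusted p = 0.0137). PAU6, identical in sequence to PAU18, was at -0.31 and did not pass, so the fall cannot be assigned to PAU18. Their direction depended on the scaling, since under median-of-ratios scaling they were at 0.09, 0.48 and 0.66, and PAU18 then rose (adjusted p = 0.0322). That scaling moved the median of all genes to 0.03 and the calls among all genes to 28.5% higher and 22.3% lower, with 28 of the 30 genes higher and none lower. The 20 genes above rose under it and relative to the actin gene ACT1, where 6.54% of all genes rose and 76.8% fell.

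Of 11 other hypoxic genes, 9 fell and none rose in acs2-ts (81.8%, near the 78.1% of all genes), with a median log2 fold change of -1.16, or 0.11 above that of all genes. They included FET4, a low-affinity iron transporter (-1.86), COX5B, the hypoxic cytochrome oxidase subunit (-1.61), HMG2, an HMG-CoA reductase (-1.57), and HEM13, of heme synthesis (-1.23), all at adjusted p of 0.000216 or less. Of 10 regulators 2 rose, which were HAP1, the heme-responsive activator (0.71), and MOT3 (0.43), and 5 fell, led by SUT1, of sterol uptake (-1.43), MGA2 (-1.22), TUP1 (-1.18) and SPT23 (-1.13). UPC2 was at 0.02 (adjusted p = 0.879) and ROX1 at 0.15 (adjusted p = 0.353). Of 11 wall proteins of aerobic growth 3 rose, HSP150 (1.06), SED1 (1.01) and CCW12 (0.62), and 3 fell, CWP1 (-1.04), PIR1 (-0.78) and TIP1 (-0.43). The silencing factors SIR2 (-1.82), SIR4 (-1.75) and SIR3 (-1.44) fell. Since the median of all genes changed by -1.27, median-of-ratios scaling turned many of these round, with 5 hypoxic genes higher and 1 lower (median 0.34), 9 regulators higher, UPC2 (1.501) and ROX1 (1.62) among them, 10 wall proteins of aerobic growth higher, and SIR2 (-0.47) and SIR4 (-0.44) still lower. Relative to ACT1, 8 hypoxic genes fell and none rose.

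In sam1, which lacked SAM1 RNA, DAN1, TIR1 and TIR4 rose and PAU2 and PAU23 fell against BY4741, and the other 25 genes did not pass, where 8% of all genes rose and 8.29% fell (limma, adjusted p under 0.05). DAN1 was at 16.9 and 20.04 RPKM in sam1, against 0.85 and 1.16 RPKM in BY4741, a log2 fold change of 3.26 ± 0.30 (SE, adjusted p = 0.0237). TIR1, at 114 and 127 RPKM in sam1 and 19.6 and 21.3 RPKM in BY4741, rose by 2.46 ± 0.15 (adjusted p = 0.00614). TIR4 rose by 1.79 ± 0.25 (adjusted p = 0.0335). For these 3 genes the lower sam1 culture stood well above the higher BY4741 culture.

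PAU2 (YEL049W), an internal copy, was at 1.38 and 1.34 RPKM in sam1, against 5.50 and 4.30 RPKM in BY4741 (-1.34 ± 0.14, adjusted p = 0.0299), and PAU23 changed by -1.58 ± 0.34 (adjusted p = 0.043). None of the 24 PAU genes rose, and the 2 that fell (8.33%) were near the share of all genes that fell. Across the 30 genes, both sam1 cultures were below both BY4741 cultures for 15 and above them for 4, against 34.7% and 31.4% of all genes. The median log2 fold change of the PAU genes was -0.37, against -0.03 for all genes. TIR3 (0.23 ± 0.32, adjusted p = 0.616), TIR2 (-0.82 ± 0.25, adjusted p = 0.0666), DAN4 (0.31 ± 0.15, adjusted p = 0.155) and PAU5 (-0.50 ± 0.30, adjusted p = 0.248) did not pass.

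The calls in sam1 changed with the cultures and strains in the model. Where no share of all genes is given, such a change may not be particular to the 30 genes. No gene of the 30 passed when only sam1 and BY4741 were fitted, or without BY4741 replicate 2, BY4741 replicate 3 or sam1 replicate 3, and only DAN1 passed relative to ACT1, where 0.014% of all genes rose and 0.014% fell. With all 8 strains in 1 model 8 passed, PAU3, PAU12 and TIR2 being the added ones, all lower, where 20.1% of all genes rose and 19.8% fell. Over these alternatives the log2 fold change was 3.11 to 4.08 for DAN1, 2.29 to 2.54 for TIR1 and 1.40 to 2.17 for TIR4, with adjusted p-values of 4.40e-05 to 0.183, 2.80e-05 to 0.123 and 0.00153 to 0.183. The change of each of the 3 genes thus stayed positive throughout.

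Contrasts of sam1 with the other mutants of the same background, chosen after the values were seen and sharing the sam1 cultures with those above, gave DAN1 3.85 ± 0.30 (adjusted p = 0.0155), TIR1 3.36 ± 0.15 (adjusted p = 0.00379) and TIR4 1.99 ± 0.25 (adjusted p = 0.0213) over ser33, where 15.5% of all genes were higher and 14.6% lower in sam1. PAU2, PAU8, PAU12, PAU15 and PAU23 were lower in sam1 than in ser33, with changes of -0.75 to -1.23. Over shm2, where 0.0842% of all genes were higher, DAN1 (3.13 ± 0.30, adjusted p = 0.0292) and TIR1 (2.63 ± 0.15, adjusted p = 0.00409) passed and TIR4 (1.99 ± 0.25, adjusted p = 0.078) did not.

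Some genes of the other lists passed in sam1, where 8% of all genes rose and 8.29% fell. The median log2 fold change was 0.34 for the 10 regulators, 0.52 for the 11 hypoxic genes and -0.19 for the 11 wall proteins of aerobic growth, against -0.03 for all genes. Of the regulators, MGA2, a membrane-tethered activator of lipid genes, rose by 0.85 (adjusted p = 0.0364), while UPC2 was at 0.74 (adjusted p = 0.0517), MOT3 at 0.54 (adjusted p = 0.0627), ROX1 at 0.17 (adjusted p = 0.479) and HAP1 at 0.14 (adjusted p = 0.421). Of 11 hypoxic genes FET4 (1.55) and ANB1, the anaerobic form of translation factor eIF5A (1.10), rose, and CYC7, the minor cytochrome c (-2.51), fell. PIR1 (1.74) rose among the 11 wall proteins of aerobic growth. None of SIR2, SIR3 and SIR4 passed.

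**Figure D4:**
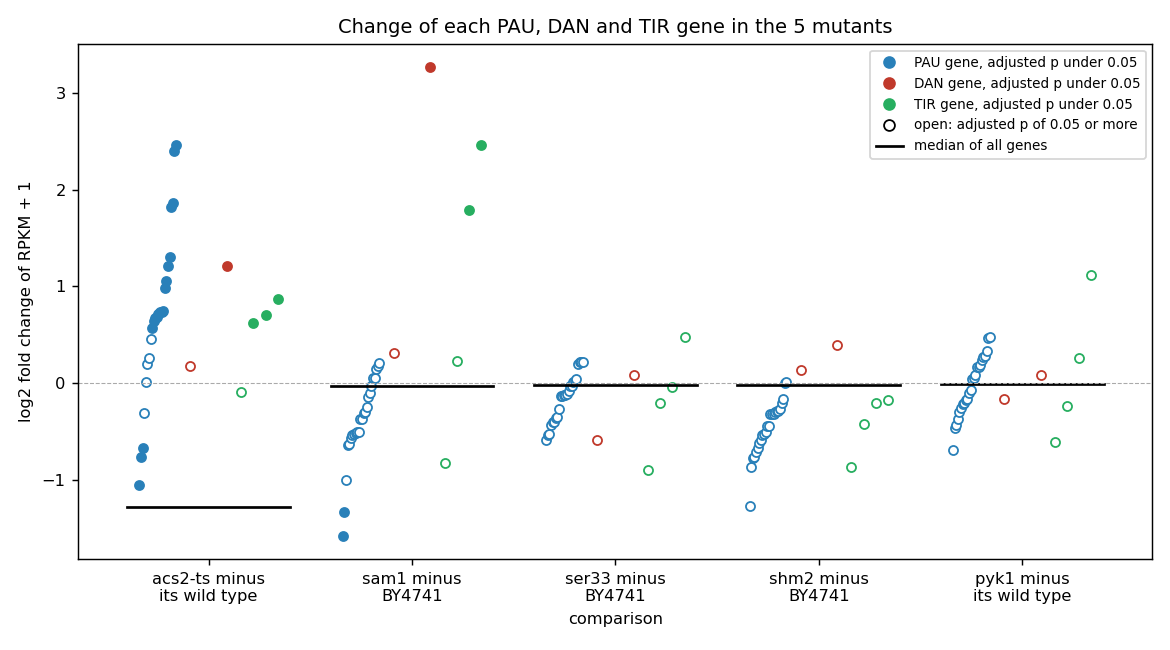
Log2 fold change of RPKM + 1 (vertical axis) of the 24 PAU, 2 DAN and 4 TIR genes in each mutant minus its wild type, as filled points where the adjusted p was under 0.05, with the median of all genes as a black line. All 30 points lie above the line in acs2-ts, DAN1, TIR1 and TIR4 stand far above it in sam1, and no point is filled in ser33, shm2 or pyk1. In acs2-ts, genes at 1 RPKM or less in the wild type, or a little above it, cannot reach the line, PAU19 among them.

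In ser33, none of the 30 genes passed, where 0% of all genes rose and 0.014% (1 gene) fell (limma). At an unadjusted p under 0.05, 3 were lower and none higher, against 4.25% and 2.18% of all genes. TIR1 was lowest of the 30 in fold change, at 11.4 and 9.60 RPKM in ser33, against 19.6 and 21.3 RPKM in BY4741, so that the cultures did not overlap (-0.90 ± 0.15, adjusted p = 0.364). The others were PAU2 (-0.58) and PAU19 (-0.40), the last of which had no read in ser33 replicate 2. DAN1 was at 0.45 and 0.22 RPKM in ser33 (-0.59 ± 0.30), PAU5 at -0.52, PAU23 at -0.35 and TIR3, the highest, at 0.47. Of the regulators UPC2 was at -0.01, HAP1 at 0.10, ROX1 at -0.34 and MOT3 at -0.05, and no gene of the 4 lists passed.

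In shm2, none of the 30 passed either, where 0% of all genes rose and 0.014% fell (limma), but more of them lay low. Both shm2 cultures were below both BY4741 cultures for 19 of the 30 genes and above them for 1, against 19.7% and 14.6% of all genes. At an unadjusted p under 0.05, 11 were lower and 1, DAN4, was higher (0.40), against 4.46% and 2.34% of all genes. PAU copies may share reads, so these counts are not independent. Of the 12 members with mostly unique sequence, 6 were below in both cultures and 1 above. At that unadjusted p, 4 of the 12 were lower and 1 was higher. PAU24 (YBR301W), near the right end of chromosome II, was at 1.16 and 1.63 RPKM in shm2, against 4.86 and 4.42 RPKM in BY4741 (-1.27 ± 0.16, adjusted p = 0.303), and passed with all 8 strains in 1 model (adjusted p = 0.0216), where 0.0421% of all genes rose and 0.0561% fell. The median log2 fold change was -0.44 for the PAU genes and -0.02 for all genes. The more abundant members showed values of -0.86 (PAU5), -0.58 (PAU23), -0.42 (TIR3), -0.18 (TIR1) and 0.13 (DAN1). UPC2 was at 0.04, HAP1 at 0.18, ROX1 at -0.14 and MOT3 at -0.05, and no gene of the 4 lists passed.

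In pyk1, none of the 30 genes passed, as of all genes (0% in each direction, limma). The cultures were separated upwards for 5 and downwards for 5 of the 30, against 22.5% and 24.1% of all genes. At an unadjusted p under 0.05, TIR3 (1.12 ± 0.25, adjusted p = 0.291) and PAU23 (0.47) were higher and PAU24 (-0.69) was lower, against 6.79% and 7.49% of all genes. DAN1 was at 0.40 and 0.77 RPKM in pyk1, against 0.85 and 0.68 RPKM in its wild type (-0.16), TIR1 was at -0.24 and PAU5 at 0.24. The regulators UPC2 (0.14), HAP1 (0.36), ROX1 (0.27) and MOT3 (0.12) did not pass, nor did any other gene of the 4 lists.

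The wild types themselves differed in some of these genes, though not more often than in genes at large. Between the wild type of acs2-ts and BY4741, 7 of the 30 rose (23.3%) and 4 fell (13.3%), where 23.3% of all genes rose and 29.6% fell (limma, all 8 strains in 1 model). DAN1, at 26.8 and 22.3 RPKM in the wild type of acs2-ts, against 0.85 and 1.16 RPKM in BY4741, was higher by 3.66 ± 0.25 (adjusted p = 1.51e-05). TIR1 was higher by 3.14 ± 0.18 (adjusted p = 3.70e-06), TIR4 by 1.45 ± 0.27 (adjusted p = 0.00132) and DAN4 by 1.07 ± 0.19 (adjusted p = 0.00115). DAN4 was at 9.28 and 11.8 RPKM, against 4.97 and 4.04 RPKM in BY4741. PAU18 (0.90), PAU9 (0.85) and PAU22 (0.65) completed the higher genes. PAU6 and PAU21, identical in sequence to PAU18 and PAU22, did not pass. The high DAN1 and TIR1 levels of acs2-ts therefore stood on a wild type that was high already.

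PAU5 (-1.07 ± 0.27, adjusted p = 0.00683), PAU23 (-1.06 ± 0.28, adjusted p = 0.00858), PAU3 (-0.81) and PAU24 (-0.58) were lower in the wild type of acs2-ts than in BY4741, but none of these 4 passed relative to ACT1, where 22.5% of all genes rose and 8.49% fell. TIR3 (0.32 ± 0.27, adjusted p = 0.356) and TIR2 (0.16) did not pass, although TIR3 did without BY4741 replicate 3 (0.75, adjusted p = 0.0359). Of 11 hypoxic genes 5 were higher and none lower, led by ANB1 (3.36), HES1, an oxysterol-binding protein (3.18), AAC3, the anaerobic ADP/ATP carrier (2.15), and OLE1, the fatty acid desaturase (1.59). UPC2 (0.56, adjusted p = 0.011) and MGA2 (0.49) were higher, ROX1 (-1.20) and SPT23 (-1.09) lower, and HAP1 (-0.01) and MOT3 (0.11) did not pass. Of the wall proteins of aerobic growth 3 were higher and 3 lower, with PIR1 (1.91), CCW12 (1.66), CIS3 (1.31) and SED1 (-1.29) largest, and SIR2 (0.62) was higher and SIR4 (-0.72) and SIR3 (-0.44) lower. Strain background and culture series cannot be told apart here.

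Between the wild type of pyk1 and BY4741, the pattern was another. TIR4 alone rose of the 30 and 6 fell, where 41.3% of all genes rose and 15.8% fell. TIR4 was at 9.37 and 9.40 RPKM in the wild type of pyk1, against 4.03 and 4.14 RPKM in BY4741 (1.08 ± 0.27, adjusted p = 0.00533). TIR3, at 3.20 and 1.83 RPKM, against 14.2 and 27.4 RPKM in BY4741, was lower (-2.54 ± 0.27, adjusted p = 2.94e-05). TIR2 was at 7.78 and 4.82 RPKM, against 14.5 and 10.7 RPKM in BY4741 (-0.91 ± 0.25, adjusted p = 0.00876). PAU23 (-1.10 ± 0.28, adjusted p = 0.00588), PAU5 (-0.87 ± 0.27, adjusted p = 0.0171), PAU3 (-0.69) and PAU13 (-0.57) were also lower. TIR4 and TIR2, neighbours on chromosome XV, thus went opposite ways. TIR1 (0.04) and DAN1 (-0.18) did not pass.

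The median of all genes was 0.28 in this comparison, and the scaling moved the calls. Under median-of-ratios scaling 27.6% of all genes rose and 28.5% fell, with 1 of the 30 higher and 8 lower, and relative to ACT1 53.3% rose and 4.24% fell, with 4 of the 30 higher (TIR4, PAU9, PAU18 and PAU22) and TIR3 alone lower. PAU6 and PAU21, identical in sequence to PAU18 and PAU22, did not pass relative to ACT1. TIR4 was higher and TIR3 lower under each scaling. Of the hypoxic genes 5 were higher and HEM13 (-1.05) was lower, with HES1 (2.74), OLE1 (1.67) and AAC3 (1.36) largest. Of the regulators MGA2 (1.07) and MOT3 (0.66) were higher, SUT1 (-0.96), ROX1 (-0.92), ECM22 (-0.91) and SPT23 (-0.74) lower, and UPC2 (0.38, adjusted p = 0.0521) and HAP1 (-0.16) did not pass. Of the wall proteins of aerobic growth 6 were higher and 3 lower, with PIR1 (2.17), TIP1 (-1.81), CIS3 (1.60) and CWP1 (1.41) largest, and SIR2 (1.24) was higher. These counts moved with the scaling as well, with 2 hypoxic genes higher and 4 lower and 1 regulator higher and 5 lower under median-of-ratios, and 6 and 1, and 5 and 0, relative to ACT1.

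Over all 8 strains, 22 of the 30 genes differed between strains (limma F-test, adjusted p under 0.05), where 91.6% of all genes did. These were 16 of 24 PAU genes, both DAN genes and all 4 TIR genes. Within the seripauperins, the correlation of strain means had a median of 0.49 over the 276 pairs, ranging from -0.94 to 0.99, and 218 pairs were positive, though identical copies share reads. The 5 genes outside the group whose strain means were most like the mean of the 24 PAU genes, among 6361 compared, were YAT1, a carnitine acetyltransferase (Pearson 0.97), YLL037W (0.91), YLR400W (0.90), ULI1 (0.89) and YGR161W-B (0.89). YAT1 averaged 9.69 RPKM in acs2-ts, 4.53 RPKM in its wild type, 2.64 RPKM in sam1 and 4.34 RPKM in BY4741, and like the PAU sum it was highest in acs2-ts and lowest in sam1. All 5 genes were highest in acs2-ts, and a correlation over 8 strain means can rest on 1 such strain. Shared regulation was not tested.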

How the data were processed

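RNA was extracted from 16 cultures of 8 strains with an RNeasy kit and sequenced as ribosomal RNA-depleted stranded libraries. The authors deposited 1 table of RPKM values with a column for each of 28 libraries. The submitters' processing notes name CASAVA 1.8.2, TopHat2 2.0.13 and the sacCer3 build. 32 further columns without values were not used. The study's text did not describe this experiment, so groups came from the labels. For the second wild-type culture of the acs2-ts pair, title (2) and description (3) give different numbers, and that in the title was kept. RPKM was transformed as log2(RPKM + 1), technical replicates were averaged, and limma 3.58.1 (R 4.3.3, lmFit and eBayes with trend) was fitted over all 7125 genes, with Benjamini-Hochberg adjustment and a threshold of 0.05, two-sided. BY4741, sam1, ser33 and shm2 shared a model, acs2-ts and pyk1 were fitted with their wild types, and contrasts between wild types used all 8 strains. Nothing says how separately the 2 cultures of a strain were grown, so p-values measure only the spread between them. Where low values were whole multiples of the RPKM of 1 read (99.5 to 100% of the values tested in a library), implied depth was taken from that step. Values are given by culture for the 5 members of largest change that passed in a comparison, the 5 most abundant members, and each DAN or TIR gene where it passed. Other members named were chosen after their values were seen. Members and lists were chosen with earlier results of these data known. Motifs and identities were computed with Python 3.11.15 and Biopython 1.88 from the RefSeq R64 genome.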

Additional observations from a re-analysis of the deposited data

How the results depend on the processing

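The following were varied: the pseudocount (0.1), technical replicates (only the first), genes (those averaging at least 1 RPKM), scaling (median-of-ratios or ACT1), strains in the model (only the 2 strains compared, or all 8), members (those with at least 50% unique 50-base words), each culture left out, and replicate blocks. Medians below are log2 changes of the 30 genes less that of all genes. In acs2-ts the median was 1.97, and 2.40 with a pseudocount of 0.1. The count that passed was 23, and 10 among the 12 unique members, where 5.7% of all genes rose and 78.1% fell. In sam1 the median was -0.27, and -0.43 with a pseudocount of 0.1. The count of 5 became 1 relative to ACT1, where 0.014% of all genes rose and 0.014% fell. It became 8 with all 8 strains, where 20.1% rose and 19.8% fell. It became 0 with only the 2 strains, and the share of all genes in that fit is not given here. TIR3 in sam1 ranged from -0.21 (without BY4741 replicate 2) to 0.66. In ser33 the median was -0.10, -0.20 with a pseudocount of 0.1 and -0.26 among unique members, and PAU23 ranged from -0.71 to 0.0071 (without BY4741 replicate 2). In shm2 the median was -0.36, -0.65 with a pseudocount of 0.1 and -0.50 to -0.31 without 1 culture, and 1 gene, PAU24, passed with all 8 strains. TIR3 in shm2 ranged from -0.86 to 0.014 (without BY4741 replicate 3) and DAN1 from -0.32 (without shm2 replicate 1) to 0.58. DAN1 in pyk1 ranged from -0.33 to 0.0078 (without pyk1 replicate 1). For the wild type of acs2-ts against BY4741 the median was -0.11, and 0.014 among unique members. It was 0.093 with the first technical replicate, 0.29 at 1 RPKM or more and -0.092 to 0.054 without 1 culture. The count of 11 was 7 among unique members, where 23.3% of all genes rose and 29.6% fell. It was 7 relative to ACT1, where 22.5% rose and 8.49% fell. TIR3 there ranged from -0.12 (without BY4741 replicate 2) to 0.75. For the wild type of pyk1 against BY4741 the count of 7 was 4 with the first technical replicate. The share of all genes in that fit is not given here. The median of -0.35 was -0.61 among unique members. TIR1 there was -0.28 under median-of-ratios scaling, -0.087 without replicate 1 of that wild type, -0.028 without BY4741 replicate 2 and 0.17 at most without 1 culture, and DAN1 was 0.054 relative to ACT1. Over the 8 strains 12 unique members passed, against 22 of 30, where 91.6% of all genes did. The cause of these shifts was not tested beyond the smaller number of genes or cultures that some alternatives hold. 

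The replicate block on shared numbers gave 0 genes in ser33. So did the crossed replicate block, added after the correlation of same-numbered cultures was seen to be -0.17. In acs2-ts, with numbers paired by description (correlation 0.12), 19 passed. The shares of all genes that passed in these fits are not given here. No paired analysis was possible for the other comparisons because their strains share fewer than 2 replicate numbers. With 2 cultures per strain, and few reads for the least expressed PAU genes, small changes were beyond detection.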
